A study of Mus musculus with 12 samples.

Results

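The genes described here encode the receptors for FLT3 ligand (Flt3), stem cell factor (Kit), CSF1 and IL-34 (Csf1r), and GM-CSF (Csf2ra and Csf2rb), together with Csf2rb2, a second beta chain of the mouse. They were chosen by symbol and are 6 of the 26121 genes in the deposited expression table. All 6 passed the filter on low values, which required at least 1 CPM (reads of a gene scaled to the size of its library) in at least 3 libraries and kept 14180 genes for testing.

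The RNA came from kidney dendritic cells of 6 male wild-type mice, 8 to 12 weeks old, sorted into CD103+ and CD11b+ populations. Of these mice, 3 were healthy and untreated, and 3 were killed 7 days after nephrotoxic antiserum, which binds the kidney filter and causes immune-mediated nephritis (labelled NTN and called inflamed here). Both cell populations came from every mouse, which gave 4 groups of 3 libraries. No group carried a deletion, a transgene or a reporter, and the sorted cells came from CD45-enriched kidney suspensions after enzymatic digestion.

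FLT3, KIT and CSF1R are closely related receptor tyrosine kinases: the ligand brings copies of the receptor together, their kinases phosphorylate each other, and RAS-MAPK and PI3K signalling follow. FLT3 ligand drives the formation and maintenance of conventional dendritic cells, CSF1R signals maintain macrophages and many monocyte-derived cells, and KIT is best known from progenitors and mast cells. The GM-CSF receptor has no kinase of its own. A ligand-specific alpha chain joins the common beta chain, which carries the kinase JAK2 and activates STAT5, and which also serves the receptors for IL-3 and IL-5. The product of Csf2rb2 is a mouse beta chain that works with the IL-3 receptor alpha chain and not with the GM-CSF one.

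The libraries held 11.5 M to 26.6 M reads assigned to genes, so that 3 reads corresponded to 0.112 to 0.254 CPM. Lineage genes went with the sort labels: Itgae, which encodes CD103, averaged 91.9 ± 31.7 CPM in healthy and 1034 ± 178 CPM in inflamed CD103+ cells (mean ± SD, n = 3, as for all group means here) against at most 4.82 ± 0.207 CPM in CD11b+ cells. Itgam, which encodes CD11b, averaged 124 ± 8.53 CPM in healthy and 315 ± 26.5 CPM in inflamed CD11b+ cells against at most 6.89 ± 0.375 CPM in CD103+ cells. Kidney tubule RNA was present in all libraries and was highest in the healthy CD103+ ones. There, 12 tubule markers made up 4.53% of the values on average, against 0.403% in inflamed CD103+ cells, 1.26% in healthy CD11b+ cells and 0.494% in inflamed CD11b+ cells. A list of 31 genes shared by leukocytes ran the other way, with 0.633%, 2.09%, 1.47% and 2.21% in the same order. Values are therefore also given after every library was shifted to the same mean of these leukocyte genes, called leukocyte scaling. This moved the median log2 difference of all genes from 0.16 to -1.54 for inflamed against healthy CD103+ cells, from 0.08 to -0.43 for inflamed against healthy CD11b+ cells, and from 0.02 to -1.20 for CD11b+ against CD103+ cells of healthy kidneys. Between the inflamed subsets it moved from 0.01 to -0.01. The part of tubule RNA in the results was not tested, and in bulk samples fewer cells of a type and less RNA per cell cannot be told apart.

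The receptors did not respond alike. With the deposited scaling, Kit, Csf2rb and Csf2rb2 rose in inflamed cells of both subsets. Flt3 rose in CD103+ and fell in CD11b+ cells, and Csf1r rose in CD11b+ cells. Csf2ra passed the test in neither subset. In CD103+ cells 4 of the 6 genes were higher in inflamed kidneys and 0 were lower (limma adjusted p under 0.05), in a comparison in which 34.6% of all tested genes were higher, 27.8% were lower and 62.4% passed in either direction. In CD11b+ cells 4 were higher and 1 was lower, where 20.1% of all tested genes were higher and 15.8% lower, 35.9% in all. Between the healthy subsets 4 were higher and 1 was lower in CD11b+ than in CD103+ cells, against 25.4% and 24.5% of all genes, 50.0% together. Between the inflamed subsets 3 were higher and 2 were lower in CD11b+ cells, against 9.66% and 8.21%, 17.9% together. The change with inflammation differed between the subsets for 2 of the 6, 1 in each direction, in a test that 17.7% of all genes passed in each direction and 35.4% in either. Leukocyte scaling changed several of these calls. Flt3 was then lower in inflamed CD103+ cells, Csf2rb2 did not pass there, and Csf1r and Csf2ra passed there as lower. In CD11b+ cells Csf1r then did not pass and Csf2ra passed as lower. Between the healthy subsets Csf2ra, Csf2rb and Csf2rb2 no longer passed, and Flt3 passed as lower in CD11b+ cells. The responses of Csf2rb and Csf2rb2 then differed as well. Between the inflamed subsets leukocyte scaling changed no call of a receptor gene: the log2 differences of CD11b+ against CD103+ cells were then -2.47 for Flt3, -1.35 for Kit, 5.81 for Csf1r, 0.59 for Csf2ra (limma adjusted p = 0.102), 1.05 for Csf2rb and 1.24 for Csf2rb2.

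**Figure D1:**
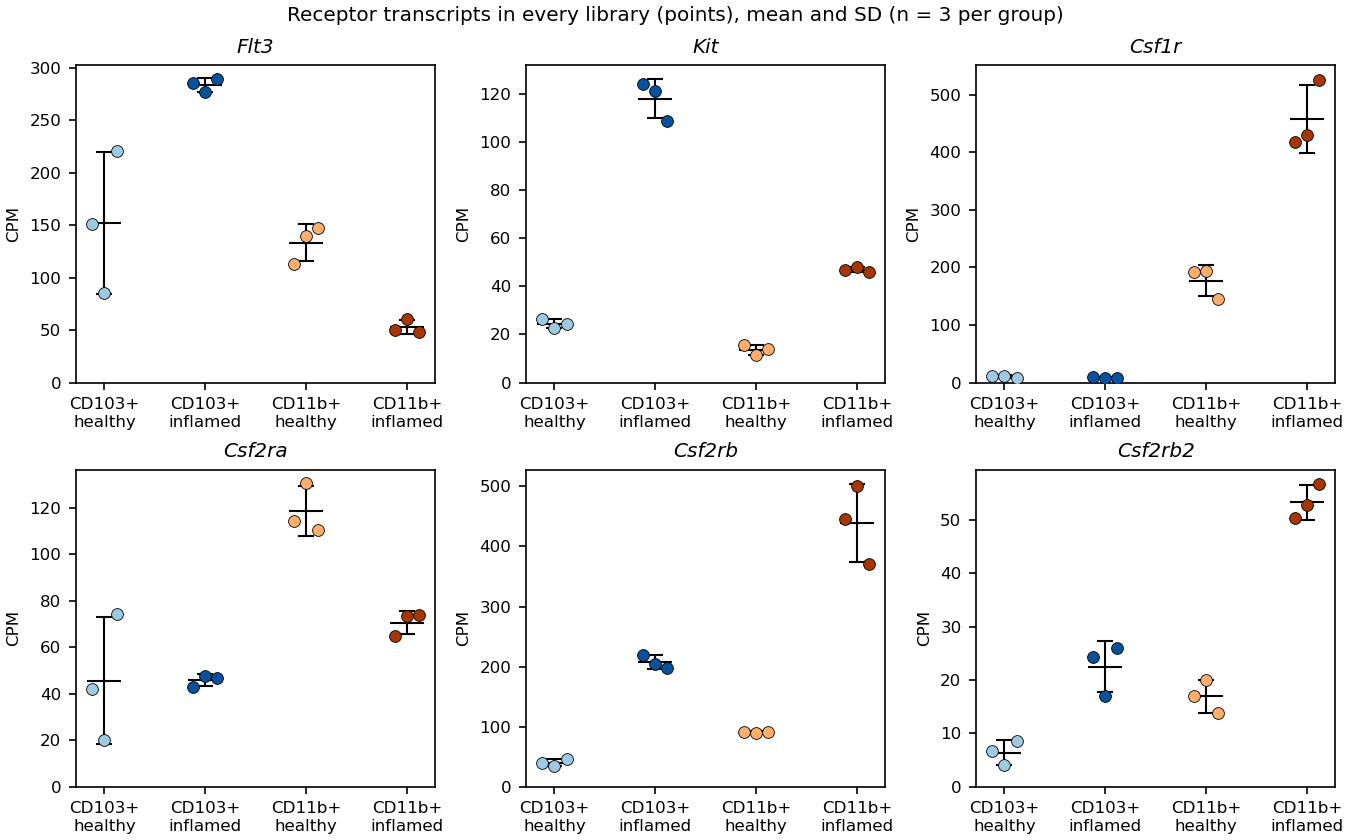
Level of each receptor gene in CPM (vertical axis, linear, from 0) in every library (points) of the 4 groups, with the group mean and SD (n = 3). Inflamed CD103+ libraries lie highest for Flt3 and Kit, inflamed CD11b+ libraries lie highest for Csf1r, Csf2rb and Csf2rb2, and healthy CD11b+ libraries lie highest for Csf2ra.

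Flt3 encodes the receptor through which FLT3 ligand sustains dendritic cells, and its gene lies on chr5:147330741-147400489 (minus strand, GRCm38). The healthy CD103+ libraries held 152, 85.0 and 220.4 CPM and the inflamed ones 286, 277 and 289 CPM. In CD11b+ cells the healthy libraries held 113, 139 and 147 CPM and the inflamed ones 49.8, 60.2 and 47.9 CPM. Every inflamed CD103+ library thus stood above every other library, and every inflamed CD11b+ library stood below every other. In CD103+ cells Flt3 was 2.003-fold higher when inflamed (log2 difference 1.002 ± 0.25, SE; limma adjusted p = 0.0035). In CD11b+ cells it was 2.53-fold lower when inflamed (log2 difference -1.34; limma adjusted p = 0.00127), and the difference between these responses was -2.34 ± 0.36 (limma adjusted p = 0.000571). The healthy subsets overlapped, with a log2 difference of -0.10 (limma adjusted p = 0.771), while inflamed CD11b+ cells held 5.42-fold less than inflamed CD103+ cells (limma adjusted p = 9.71e-06). The healthy CD103+ libraries spread widely for Flt3, and among them the leukocyte genes summed to 4097 to 8839 CPM and the tubule markers to 33830 to 54160 CPM. Without healthy CD103+ replicate 2, the lowest library, the rise in CD103+ cells was 0.63 and the healthy subsets differed by -0.46 (limma adjusted p = 0.0418). Leukocyte scaling turned the CD103+ change to -0.69 (limma adjusted p = 0.00441) and the healthy subset difference to -1.31. The fall in CD11b+ cells was then -1.84 and the difference of responses -1.15 (limma adjusted p = 0.00447), so both kept their direction.

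Kit encodes the receptor for stem cell factor and lies on chr5:75574916-75656722 (plus strand). The healthy CD103+ libraries held 26.4, 22.6 and 24.5 CPM and the inflamed ones 124, 121 and 109 CPM. Healthy CD11b+ libraries held 15.6, 11.3 and 14.0 CPM and inflamed ones 46.9, 48.1 and 45.8 CPM. The 4 groups did not overlap, and the inflamed CD103+ libraries were the highest. Kit was 4.81-fold higher in inflamed than in healthy CD103+ cells (log2 difference 2.27 ± 0.14, SE; limma adjusted p = 8.43e-08) and 3.46-fold higher in inflamed than in healthy CD11b+ cells (1.79; limma adjusted p = 2.68e-06). CD11b+ cells held 1.81-fold less than CD103+ cells in healthy kidneys (limma adjusted p = 0.000302) and 2.51-fold less in inflamed ones (limma adjusted p = 1.28e-05). The responses differed by -0.47 (limma adjusted p = 0.0806), and without healthy CD11b+ replicate 2 by -0.60 (limma adjusted p = 0.0303). Under leukocyte scaling the rise was 0.57 in CD103+ cells (limma adjusted p = 0.0416) and 1.29 in CD11b+ cells, and the healthy subsets differed by -2.07. The difference of the responses was then 0.71, with the other sign (limma adjusted p = 0.0964).

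Kit is also a marker of mast cells and of progenitors, so those lists were summed in each library. The 8 mast cell and basophil markers found came to 5.75 to 14.8 CPM in inflamed CD103+ cells, where Kit was highest, and 5 of the 8 (Mcpt4, Tpsb2, Tpsab1, Cma1 and Ms4a2) had 0 reads there. They came to 6.68 to 16.8 CPM in healthy CD103+, 18.4 to 36.8 CPM in healthy CD11b+ and 52.9 to 108 CPM in inflamed CD11b+ cells. The last range was nearly all Hdc, the histamine-forming enzyme, at 80.3 ± 27.4 CPM, a gene that other myeloid cells also express. In that group 4 of the 8 markers (Mcpt4, Tpsb2, Tpsab1 and Fcer1a) had 0 reads, while Cpa3, Cma1 and Ms4a2 had some. In healthy CD103+ cells only 1 of the 8 (Ms4a2) had 0 reads. In healthy CD11b+ cells 6 did (Cpa3, Mcpt4, Tpsb2, Tpsab1, Fcer1a and Ms4a2). The 5 progenitor markers found summed to 26.0 to 35.4 CPM in healthy and 18.5 to 26.1 CPM in inflamed CD103+ cells, and to 13.4 to 18.7 CPM in healthy and 17.04 to 21.7 CPM in inflamed CD11b+ cells. Most of that sum was Cd34 and, in healthy CD103+ cells, Hoxa9, while Mpo, a granule gene of myeloid progenitors, averaged at most 0.169 ± 0.155 CPM in any group. The sum hides opposite changes: of the 2 progenitor markers past the filter, 1 was higher and 1 lower in inflamed cells of either subset. Of all genes 34.6% were higher and 27.8% lower in CD103+ cells, and 20.1% and 15.8% in CD11b+ cells. Under leukocyte scaling 0 were higher and 2 lower in CD103+ cells, against 2.36% and 74.5% of all genes. In CD11b+ cells 0 were then higher and 1 lower, against 3.95% and 23.9%. The part of mast cells or progenitors in the Kit levels was not tested.

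Csf1r encodes the receptor for CSF1 and IL-34. Healthy CD103+ libraries held 12.0, 10.7 and 7.03 CPM and inflamed ones 9.34, 7.39 and 7.20 CPM. Healthy CD11b+ libraries held 193, 193 and 146 CPM and inflamed ones 418, 429 and 525 CPM. No CD103+ library came near a CD11b+ library, and the 2 CD11b+ groups did not overlap. Csf1r was 18.1-fold higher in CD11b+ than in CD103+ cells when healthy (log2 difference 4.18; limma adjusted p = 4.5e-09) and 57.3-fold higher when inflamed (5.84; limma adjusted p = 1.97e-10). It rose 2.59-fold with inflammation in CD11b+ cells (limma adjusted p = 0.000208), while in CD103+ cells the difference was -0.29 ± 0.20 (SE; limma adjusted p = 0.224). The responses differed by 1.66 ± 0.28 (limma adjusted p = 0.000984). Without healthy CD103+ replicate 3 the difference within CD103+ cells was -0.52 (limma adjusted p = 0.0183). Under leukocyte scaling it was -1.98 (limma adjusted p = 8.01e-05), the rise in CD11b+ cells was 0.87 with a limma adjusted p of 0.058, and the healthy and inflamed subset differences were 2.96 and 5.81. Of the exon bases of Csf1r, 15.1% overlap those of Hmgxb3, and the use of strand in the counting was not stated in the sources used, so reads there cannot be told apart.

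Monocytes and macrophages also carry CSF1R, so their genes were counted. The 7 monocyte markers summed to 78.3 to 126 CPM in healthy and 312 to 365 CPM in inflamed CD103+ cells, and to 212 to 306 CPM in healthy and 530 to 576 CPM in inflamed CD11b+ cells. Of 12 macrophage genes, 9 were higher and 1 was lower in inflamed than in healthy CD11b+ cells, with a median log2 difference of 1.995 against 0.08 over all genes. Of all genes 20.1% were higher and 15.8% lower in that comparison. Cx3cr1, the fractalkine receptor, rose from 58.7 ± 8.80 to 332 ± 49.9 CPM (5.65-fold; limma adjusted p = 4.69e-06). C1qc and C1qb, chains of complement C1q, rose from 1.58 ± 0.563 to 17.8 ± 7.49 CPM and from 20.5 ± 10.9 to 194 ± 78.4 CPM. Between the inflamed subsets 10 of the 12 were higher in CD11b+ cells and 0 were lower, with a median of 5.04. Of all genes 9.66% were higher and 8.21% lower there. Mrc1, the mannose receptor, stood at 326 ± 32.4 CPM in inflamed CD11b+ against 3.95 ± 1.36 CPM in inflamed CD103+ cells, and Cd163, a haemoglobin scavenger receptor, at 26.1 ± 6.95 against 1.27 ± 0.333 CPM. In CD103+ cells 5 of the 12 were higher and 2 lower when inflamed, where 34.6% of all genes were higher and 27.8% lower. The 2 lower ones were Mertk, an uptake receptor for dead cells, which fell from 14.3 ± 4.66 to 1.82 ± 0.377 CPM, and Apoe, which fell from 11.4 ± 4.10 to 1.28 ± 0.820 CPM. Cx3cr1 rose there from 2.04 ± 0.293 to 6.65 ± 1.81 CPM. Under leukocyte scaling 3.95% of all genes were higher and 23.9% lower in inflamed CD11b+ cells, 2.36% higher and 74.5% lower in inflamed CD103+ cells, and, between the inflamed subsets, 6.59% were higher and 5.41% lower on the CD11b+ side. The macrophage counts were then 5 higher and 2 lower in CD11b+ cells (median 1.49), 1 higher and 6 lower in CD103+ cells (median -1.03), and again 10 and 0 between the inflamed subsets. With the deposited scaling the responses differed for 6 of the 12 upwards and 1 downwards, in a test that 17.7% of all genes passed in each direction. Without healthy CD103+ replicate 2 they differed for 3 each way. The part of monocytes or macrophages in the Csf1r levels was not tested.

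Csf2ra encodes the alpha chain that binds GM-CSF (chr19:61223957-61228429, minus strand). Healthy CD103+ libraries held 42.0, 20.1 and 74.4 CPM, a spread that covered the inflamed ones at 43.0, 47.8 and 46.8 CPM. Healthy CD11b+ libraries held 115, 131 and 111 CPM and inflamed ones 64.7, 73.4 and 73.8 CPM, with no overlap. Csf2ra was 2.98-fold higher in healthy CD11b+ than in healthy CD103+ cells (log2 difference 1.57; limma adjusted p = 0.0014), and this was its only difference past the threshold. Inflamed against healthy, it differed by 0.20 ± 0.32 in CD103+ cells (SE; limma adjusted p = 0.599) and by -0.75 in CD11b+ cells (limma adjusted p = 0.0861), and the subset difference in inflamed kidneys was 0.62 (limma adjusted p = 0.229). The responses differed by -0.95 (limma adjusted p = 0.117).

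These Csf2ra results depended on single healthy CD103+ libraries, and over the fits that leave out 1 library the difference in CD103+ cells ran from -0.29 to 0.66. Without healthy CD103+ replicate 3 the difference in CD103+ cells was 0.66 (limma adjusted p = 0.0231), that in CD11b+ cells kept its size with a limma adjusted p of 0.0111, the inflamed subset difference had a limma adjusted p of 0.0462, and the responses differed by -1.40 (limma adjusted p = 0.00285). Without healthy CD103+ replicate 2 the difference in CD11b+ cells and that between inflamed subsets had limma adjusted p values of 0.00434 and 0.0205. Under leukocyte scaling Csf2ra was lower in the inflamed state in both subsets, by -1.49 in CD103+ cells (limma adjusted p = 2.86e-05) and -1.25 in CD11b+ cells (limma adjusted p = 0.000944), and the healthy subsets differed by 0.36 (limma adjusted p = 0.147). The difference of the responses was then 0.24 (limma adjusted p = 0.528).

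Csf2rb encodes the signalling beta chain shared by the receptors for GM-CSF, IL-3 and IL-5 (chr15:78325752-78353847, plus strand). Healthy CD103+ libraries held 39.4, 35.1 and 46.3 CPM and inflamed ones 220.0, 204 and 198 CPM. Healthy CD11b+ libraries held 91.4, 89.8 and 91.9 CPM and inflamed ones 446, 501 and 370.4 CPM. The 4 groups did not overlap, and both inflamed groups stood above both healthy ones. Csf2rb was 5.17-fold higher in inflamed than in healthy CD103+ cells (log2 difference 2.37 ± 0.14, SE; limma adjusted p = 6.94e-08) and 4.79-fold higher in inflamed than in healthy CD11b+ cells (2.26; limma adjusted p = 4.6e-07). CD11b+ cells held 2.28-fold more in healthy kidneys (limma adjusted p = 1.97e-05) and 2.10-fold more in inflamed ones (limma adjusted p = 6.74e-05). The responses differed by -0.11 (limma adjusted p = 0.68). Under leukocyte scaling the rises were 0.68 in CD103+ cells (limma adjusted p = 0.00651) and 1.75 in CD11b+ cells, which differed by 1.08 (limma adjusted p = 0.00828), and the healthy subsets differed by -0.03 (limma adjusted p = 0.902).

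Csf2rb2 (chr15:78282507-78305721, minus strand) followed Csf2rb at a lower level. Healthy CD103+ libraries held 6.74, 4.00 and 8.49 CPM and inflamed ones 24.4, 17.1 and 26.0 CPM. Healthy CD11b+ libraries held 17.1, 19.9 and 13.8 CPM and inflamed ones 50.3, 52.7 and 56.8 CPM. Inflamed CD11b+ libraries were the highest and healthy CD103+ libraries the lowest, and the remaining 2 groups overlapped. Csf2rb2 rose 3.6-fold with inflammation in CD103+ cells (log2 difference 1.85 ± 0.26, SE; limma adjusted p = 3.14e-05) and 3.17-fold in CD11b+ cells (1.67; limma adjusted p = 0.000307). It was 2.73-fold higher in healthy CD11b+ than in healthy CD103+ cells (limma adjusted p = 0.000454) and 2.40-fold higher between the inflamed subsets (limma adjusted p = 0.00285), and the responses differed by -0.18 (limma adjusted p = 0.719). Leukocyte scaling left a rise of 1.16 in CD11b+ cells (limma adjusted p = 0.00228), against 0.16 in CD103+ cells (limma adjusted p = 0.542) and a healthy subset difference of 0.23 (limma adjusted p = 0.365). The responses then differed by 1.01 (limma adjusted p = 0.022).

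The beta chain genes are near-identical neighbours, and reads of 50 bases can match both, so their split is uncertain. Their coding sequences of 2688 bases (Csf2rb) and 2634 bases (Csf2rb2) were 95.2% identical over 2628 aligned bases, with 1 identical run of 242 bases. Of the 50-base windows in the annotated transcripts, 892 were shared, which is 12.3% of those of Csf2rb and 18.4% of those of Csf2rb2. The pair below shows where a read can be assigned: in exon 4 these 100-base stretches differ at 16 positions, given in capitals, with Csf2rb at chr15:78338887-78338986 on the plus strand and Csf2rb2 at chr15:78294345-78294444 on the minus strand (GRCm38, both written 5′ to 3′).
Csf2rb, exon 4: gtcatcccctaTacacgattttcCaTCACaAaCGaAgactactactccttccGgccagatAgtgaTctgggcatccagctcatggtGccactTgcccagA
Csf2rb2, exon 4: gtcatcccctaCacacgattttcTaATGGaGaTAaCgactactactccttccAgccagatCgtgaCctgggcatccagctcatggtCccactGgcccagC
In exon 14, which encodes most of the tail inside the cell, the next stretch is the same in both genes, with 0 differing bases and therefore no capitals. It lies at chr15:78348577-78348676 in Csf2rb and at chr15:78284772-78284871 in Csf2rb2.
Csf2rb and Csf2rb2, exon 14: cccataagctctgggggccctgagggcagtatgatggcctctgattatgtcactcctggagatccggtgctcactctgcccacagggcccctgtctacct
With the reads of both genes added together and fitted as 1 feature, the sum rose 4.96-fold in CD103+ cells (limma adjusted p = 7.39e-08) and 4.53-fold in CD11b+ cells (limma adjusted p = 6.3e-07). CD11b+ cells held more of the sum than CD103+ cells, by log2 differences of 1.22 (healthy) and 1.09 (inflamed). This sum does not depend on which of the genes a shared read was given to. A shared read that was counted for neither gene would be missing from the sum, and how such reads were counted is not known here.

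**Figure D2:**
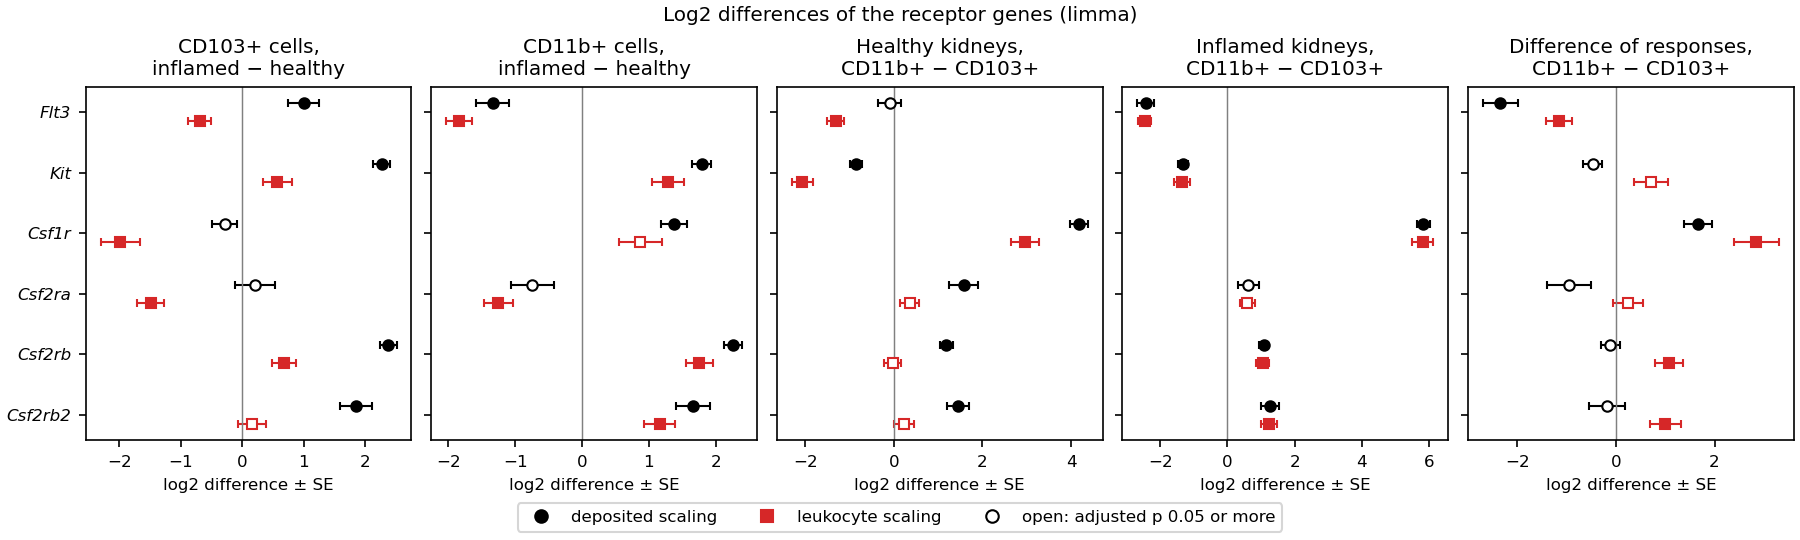
Log2 differences with their SE (horizontal axes, a separate scale in each panel) of the receptor genes in the 5 comparisons, with the deposited scaling (black circles) and with leukocyte scaling (red squares). Open symbols have a limma adjusted p of 0.05 or more. The symbols nearly coincide in inflamed kidneys and lie furthest apart where healthy CD103+ libraries enter, with Flt3 moving from 1.002 to -0.69 in CD103+ cells. They also lie apart, by less, for inflamed against healthy CD11b+ cells.

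Differences between 2 genes of the same library do not depend on how that library was scaled, and they were compared by exact two-sided permutation tests, which with 3 against 3 libraries cannot go below 0.10. In 4 comparisons of 3 such balances, 12 tests were made in all, so that none could pass a correction. The balance of Csf1r against Flt3 (log2 Csf1r minus log2 Flt3) averaged -3.87 ± 1.01 in healthy and -5.16 ± 0.20 in inflamed CD103+ cells, 0.41 ± 0.39 in healthy CD11b+ cells and 3.12 ± 0.31 in inflamed CD11b+ cells. In CD11b+ cells the libraries went from 0.76, 0.47 and -0.01 when healthy to 3.07, 2.83 and 3.46 when inflamed, a 6.56-fold shift towards Csf1r without overlap (exact permutation p = 0.1). In CD103+ cells the shift was -1.29 with overlapping groups (exact permutation p = 0.2). Between the inflamed subsets the balances lay 310.5-fold apart, 8.28 on the log2 scale (exact permutation p = 0.1).

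The balance of the GM-CSF receptor chains, Csf2rb minus Csf2ra, shifted in the same direction in both subsets. The healthy CD103+ libraries stood at -0.09, 0.80 and -0.69 and the inflamed ones at 2.35, 2.09 and 2.08. Healthy CD11b+ libraries stood at -0.33, -0.54 and -0.27 and inflamed ones at 2.79, 2.77 and 2.33. Beta chain RNA thus gained on alpha chain RNA 4.49-fold in CD103+ and 8.03-fold in CD11b+ cells, in each case without overlap (exact permutation p = 0.1 for both). The subsets overlapped in either state, with exact permutation p of 0.5 in healthy and 0.2 in inflamed kidneys. The balance of the 2 beta chains, Csf2rb2 minus Csf2rb, overlapped in all 4 comparisons of the deposited values. It averaged -2.70 ± 0.37 in healthy and -3.23 ± 0.33 in inflamed CD103+ cells, and -2.44 ± 0.28 and -3.03 ± 0.29 in CD11b+ cells. With a pseudocount of 4 CPM its inflamed and healthy groups did not overlap in either subset (exact permutation p = 0.1 for both).

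**Figure D3:**
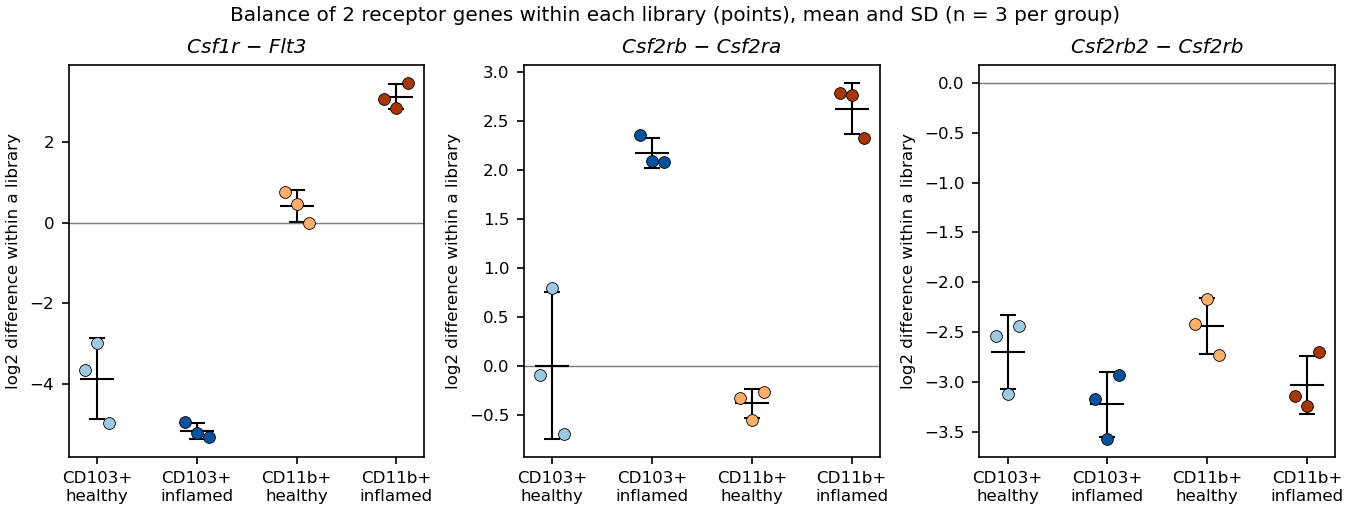
Log2 difference between 2 receptor genes within each library (points), with group mean and SD (n = 3), for Csf1r minus Flt3, Csf2rb minus Csf2ra and Csf2rb2 minus Csf2rb. Inflamed CD11b+ libraries lie above healthy ones in the first 2 panels, inflamed CD103+ libraries lie above healthy ones in the middle panel, and groups overlap in the last.

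Levels of different genes were compared per kilobase of exon. In healthy CD103+ cells Flt3 led at 24.7 ± 11.0 CPM per kb, followed by Csf2ra at 15.9 ± 9.51, Csf2rb at 5.53 ± 0.775, Kit at 2.75 ± 0.218, Csf1r at 1.72 ± 0.447 and Csf2rb2 at 1.35 ± 0.477. Flt3 and Csf2ra overlapped there, as did Csf1r and Csf2rb2. In inflamed CD103+ cells the order was Flt3 at 46.0 ± 1.04 CPM per kb, Csf2rb at 28.5 ± 1.57, Csf2ra at 15.96 ± 0.872, Kit at 13.2 ± 0.913, Csf2rb2 at 4.74 ± 1.002 and Csf1r at 1.38 ± 0.205. Flt3 thus led in CD103+ cells of both states. Healthy CD11b+ cells held most Csf2ra at 41.3 ± 3.75 CPM per kb, then Csf1r at 30.7 ± 4.72, Flt3 at 21.6 ± 2.86, Csf2rb at 12.5 ± 0.149, Csf2rb2 at 3.57 ± 0.648 and Kit at 1.53 ± 0.240. In inflamed CD11b+ cells Csf1r led at 79.3 ± 10.2 CPM per kb, ahead of Csf2rb at 60.4 ± 9.005, Csf2ra at 24.6 ± 1.79, Csf2rb2 at 11.2 ± 0.690, Flt3 at 8.52 ± 1.07 and Kit at 5.27 ± 0.125. Neighbours in these 3 orders did not overlap between libraries. Flt3 went from the third place to the fifth in CD11b+ cells, below Csf2rb2.

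**Figure D4:**
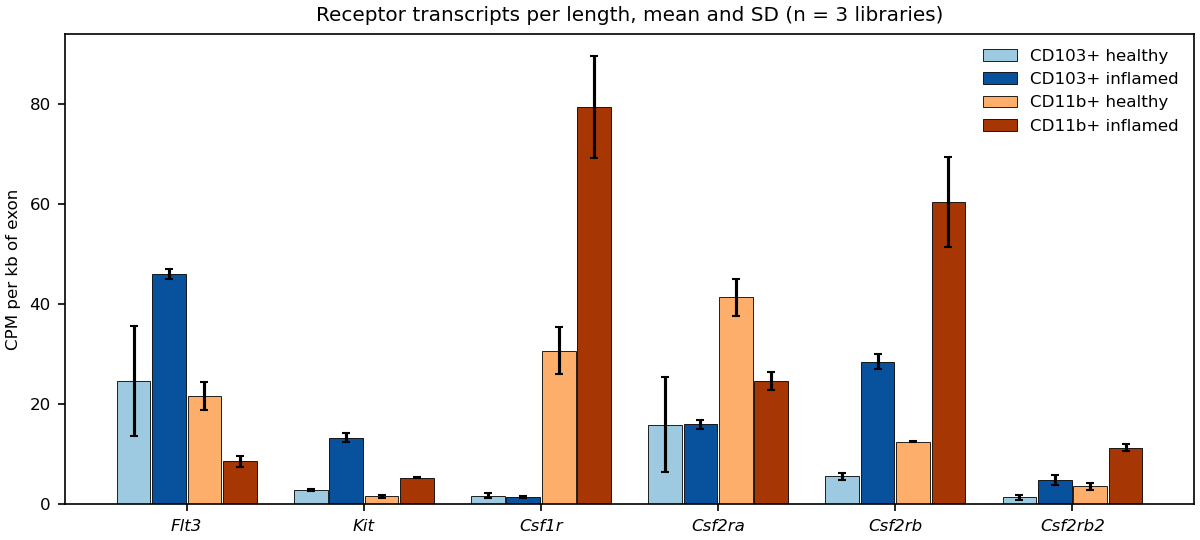
Level per kilobase of annotated exon (CPM per kb, vertical axis from 0) of the 6 receptor genes in the 4 groups, as group mean (bars) and SD (error bars, n = 3). Flt3 is the tallest bar in both CD103+ groups, Csf2ra in healthy CD11b+ cells at 41.3 and Csf1r in inflamed CD11b+ cells at 79.3.

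Promoter sequences from RefSeq (GRCm38.p6, 250 bases before to 50 after the start) were matched for 4 of the 6 genes. They were searched on both strands for GAGGAA, the core bound by PU.1, a transcription factor of myeloid cells, and for TTCNNNGAA, the pattern bound by STAT5. The matched promoters of Kit and Csf2rb2, which rose in both inflamed subsets, are shown with GAGGAA or its reverse complement in capitals.
Kit, chr5:75574737-75575036, plus strand: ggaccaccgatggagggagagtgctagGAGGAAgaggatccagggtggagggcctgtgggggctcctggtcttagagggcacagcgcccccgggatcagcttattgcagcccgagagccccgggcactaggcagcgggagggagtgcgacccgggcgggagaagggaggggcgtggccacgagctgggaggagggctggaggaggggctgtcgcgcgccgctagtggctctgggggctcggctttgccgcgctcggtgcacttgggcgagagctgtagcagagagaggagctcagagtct
Csf2rb2, chr15:78305672-78305971, minus strand: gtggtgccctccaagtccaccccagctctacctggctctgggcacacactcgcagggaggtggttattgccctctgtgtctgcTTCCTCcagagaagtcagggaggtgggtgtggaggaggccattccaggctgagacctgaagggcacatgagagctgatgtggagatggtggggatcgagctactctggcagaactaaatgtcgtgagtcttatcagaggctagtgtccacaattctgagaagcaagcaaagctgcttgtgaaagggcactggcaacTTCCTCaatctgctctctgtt
GAGGAA occurred 1 time in Kit, 2 times in Csf2rb2, 2 times in Csf2ra and 0 times in Flt3, and 28.3% of 32851 promoters of this length held it. TTCNNNGAA occurred 1 time in Csf2rb2, where it does not overlap GAGGAA, and 0 times in the other 3, against 8.3% of the same promoters. These matches describe letters and not binding.

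The genes whose pattern over the 12 libraries was most like each receptor were found by the root-mean-square difference of centred log2 values among 8979 genes. Flt3 was most like Batf3 (0.24), a transcription factor needed for cDC1 cells, then Cst3 (0.29), which encodes cystatin C, and Slc46a3 (0.29). Kit was most like Pfkp (0.33), a phosphofructokinase of glycolysis, then Adam8 (0.34) and Sept9 (0.36), which encodes a septin. Csf1r was most like Lrp1 (0.40), an endocytic receptor, then Hcar2 (0.54) and Cybb (0.56), which encodes the catalytic chain of the phagocyte oxidase. Csf2ra was most like Zc3h12d (0.22), H2-Eb1 (0.23), an MHC class II beta chain, and Lpcat2 (0.24). Csf2rb was most like Itgax (0.18), which encodes CD11c, then Adgrg5 (0.29) and Cd274 (0.32), which encodes PD-L1. Csf2rb2 was most like Ctsc (0.21), which encodes cathepsin C, then Pirb (0.24) and Cyth4 (0.24), which is one of the genes used for leukocyte scaling. Among the receptors, Csf2rb and Csf2rb2 were the nearest pair at 0.40. The median candidate lay between 0.91 from Csf2ra and 2.61 from Csf1r, and the libraries share tubule and leukocyte content, so likeness is a description.

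Of 7 ligand genes, 5 were measured, and Il3 and Il5 stayed below the filter. Csf2, which encodes GM-CSF, rose in CD103+ cells from 0.437 ± 0.456 CPM, 21 reads over the 3 libraries, to 13.8 ± 4.33 CPM (log2 difference 6.00 ± 1.10, SE; limma adjusted p = 0.000355). It stood at 1.13 ± 0.776 and 1.24 ± 0.981 CPM in healthy and inflamed CD11b+ cells. T cells and NK cells also make GM-CSF, and 7 of 7 T cell and 5 of 6 NK cell markers were higher in inflamed CD103+ cells, as were 34.6% of all genes. The T cell markers summed there to 365 to 448 CPM against 105.5 to 188 CPM in healthy libraries, and the NK cell markers to 48.2 to 69.7 against 10.4 to 21.3 CPM. In CD11b+ cells, where Csf2 was low, the T cell markers summed to 504 to 655 CPM when healthy and 421 to 499 CPM when inflamed, and the NK cell markers to 133 to 168 and 62.9 to 68.3 CPM. Under leukocyte scaling 0 T cell markers were higher and 2 lower in inflamed CD103+ cells, and 1 NK cell marker passed each way. With that scaling 2.36% of all genes were higher and 74.5% lower there. The part of T and NK cells in the Csf2 level was not tested. Flt3l, the FLT3 ligand, fell in CD11b+ cells from 8.39 ± 1.32 to 3.61 ± 1.502 CPM (limma adjusted p = 0.0231) and stood at 2.24 ± 1.21 and 3.38 ± 0.775 CPM in healthy and inflamed CD103+ cells. Kitl, which encodes stem cell factor, fell in CD103+ cells from 9.87 ± 5.38 to 2.43 ± 1.91 CPM (limma adjusted p = 0.00905), and Il34 fell there from 24.7 ± 8.61 to 7.74 ± 2.87 CPM (limma adjusted p = 0.00206). Both were highest in healthy CD103+ libraries, where tubule markers made up 4.53% of the values, against 0.403% in inflamed CD103+ ones. The part of tubule RNA in their levels was not tested. Of the 5 ligand genes 1 was higher and 2 lower in inflamed CD103+ cells, where 27.8% of all genes were lower. Under leukocyte scaling 1 was higher and 3 lower there, against 2.36% and 74.5% of all genes. Csf1 averaged 0.873 ± 0.753 to 4.92 ± 1.29 CPM over the groups and passed in no comparison.

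Related receptors shared no direction in inflamed against healthy CD103+ cells, where 34.6% of all genes were higher and 27.8% lower. Of 6 measured, Il2rg, the common gamma chain, rose in inflamed CD103+ cells from 54.8 ± 16.02 to 141 ± 6.58 CPM, and 3 fell, among them Il5ra, the IL-5 receptor alpha chain, from 2.40 ± 0.826 to 0.236 ± 0.204 CPM. Without healthy CD103+ replicate 2 only 4 of these genes were measured, of which 1 was higher and 0 were lower. Under leukocyte scaling 0 of the 6 were higher and 5 lower in CD103+ cells, against 2.36% and 74.5% of all genes. In CD11b+ cells Csf3r, the G-CSF receptor, rose from 17.4 ± 5.84 to 79.0 ± 14.4 CPM (limma adjusted p = 0.00634), where 8 neutrophil markers summed to 50.7 to 108 CPM in healthy and 90.6 to 165 CPM in inflamed libraries. The part of neutrophils in the Csf3r level was not tested. Il3ra, which encodes the IL-3 binding chain that joins either beta chain, fell in CD11b+ cells from 6.68 ± 2.50 to 1.54 ± 0.603 CPM (limma adjusted p = 0.00591), opposite to Csf2rb and Csf2rb2.

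The signalling genes downstream of the receptors were mostly higher in inflamed CD103+ cells, but with leukocyte scaling this direction was lost. Of 10 JAK-STAT5 genes 9 were higher and 0 were lower in inflamed CD103+ cells, with a median log2 difference of 1.27 against 0.16 over all genes, of which 34.6% were higher and 27.8% lower. Jak2, the kinase carried by the beta chain, rose from 26.3 ± 9.03 to 108 ± 9.12 CPM (4.24-fold; limma adjusted p = 9.36e-07). Ptpn6, which encodes the phosphatase SHP-1, rose from 107 ± 26.1 to 267 ± 2.98 CPM and Stat3 from 68.1 ± 7.65 to 156 ± 8.67 CPM. In CD11b+ cells 2 of the 10 were higher and 0 were lower, Stat3 and Jak2, with 1.74-fold and 1.88-fold rises, and the median was 0.23 against 0.08 over all genes, of which 20.1% were higher and 15.8% lower. Without healthy CD103+ replicate 2 the count in CD11b+ cells was 4. Under leukocyte scaling 0 were higher and 4 lower in CD103+ cells, with a median of -0.42 against -1.54 over all genes, and 0 passed in either direction in CD11b+ cells, with a median of -0.28 against -0.43. With that scaling 2.36% of all genes were higher and 74.5% lower in CD103+ cells, and 3.95% and 23.9% in CD11b+ cells.

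Of 30 genes of receptor tyrosine kinase signalling, 23 were higher and 1 was lower in inflamed CD103+ cells, and 12 were higher and 1 was lower in inflamed CD11b+ cells, with medians of 0.91 and 0.49. Over all genes 34.6% were higher and 27.8% lower in CD103+ cells and 20.1% and 15.8% in CD11b+ cells, with medians of 0.16 and 0.08. Nras, a RAS protein, rose in both subsets, from 231 ± 31.5 to 660 ± 77.2 CPM in CD103+ and from 350 ± 16.8 to 754 ± 117 CPM in CD11b+ cells. Pik3r5, a regulatory subunit of PI3K gamma, rose 3.99-fold and Inpp5d, which encodes the lipid phosphatase SHIP1, 4.17-fold in CD103+ cells. Dok2, an adaptor that dampens RAS signalling, was 8.00-fold higher in healthy CD11b+ than in healthy CD103+ cells and 6.44-fold higher between the inflamed subsets. It rose 2.18-fold with inflammation in CD11b+ cells. Under leukocyte scaling 2 of the 30 were higher and 17 lower in CD103+ cells, against 2.36% and 74.5% of all genes. In CD11b+ cells 5 were then higher and 5 lower, against 3.95% and 23.9%. The medians were then -0.79 and -0.02 against -1.54 and -0.43 over all genes.

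Known STAT5 targets and feedback genes did not share a direction. Of 15 measured, 7 were higher and 4 were lower in inflamed CD103+ cells, and 3 and 2 in inflamed CD11b+ cells, with medians of 0.55 and 0.13 against 0.16 and 0.08 over all genes. Of all genes 34.6% were higher and 27.8% lower in CD103+ cells, and 20.1% and 15.8% in CD11b+ cells. In CD103+ cells Ccnd2, a cyclin, rose from 23.5 ± 4.46 to 92.5 ± 12.6 CPM, whereas the kinase gene Pim3 fell from 23.6 ± 2.05 to 6.396 ± 0.454 CPM and the survival gene Bcl2l1 fell from 212 ± 22.4 to 79.5 ± 8.26 CPM. In CD11b+ cells Cish, a feedback inhibitor of STAT5, rose from 7.17 ± 3.79 to 33.2 ± 4.39 CPM (5.16-fold; limma adjusted p = 0.00283), and stood at 15.3 ± 11.6 and 17.6 ± 0.881 CPM in healthy and inflamed CD103+ cells. Under leukocyte scaling 1 was higher and 10 were lower in CD103+ cells and 1 was higher and 5 were lower in CD11b+ cells, with medians of -1.15 and -0.38 against -1.54 and -0.43 over all genes. Of all genes 2.36% were then higher and 74.5% lower in CD103+ cells, and 3.95% and 23.9% in CD11b+ cells.

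Of 16 measured transcription factors of dendritic and myeloid cells, 11 were higher and 3 lower in inflamed CD103+ cells, with a median of 0.85, and 3 were higher and 2 lower in inflamed CD11b+ cells, with a median of -0.29, against 0.16 and 0.08 over all genes. Of all genes 34.6% were higher and 27.8% lower in CD103+ cells, and 20.1% and 15.8% in CD11b+ cells. Under leukocyte scaling the counts of these factors were 1 higher and 8 lower, and 0 higher and 6 lower, with medians of -0.85 and -0.79 against -1.54 and -0.43 over all genes. With that scaling 2.36% of all genes were higher and 74.5% lower in CD103+ cells, and 3.95% and 23.9% in CD11b+ cells. Spi1, which encodes PU.1, fell in CD11b+ cells from 66.2 ± 9.25 to 29.2 ± 0.819 CPM (limma adjusted p = 0.00624), and Batf3 fell there from 18.4 ± 2.91 to 7.67 ± 0.290 CPM (limma adjusted p = 0.00158). Cebpb, a factor of monocytes and macrophages, rose there from 19.2 ± 10.3 to 53.5 ± 9.07 CPM (limma adjusted p = 0.00292). Between the inflamed subsets Irf8, which directs cDC1 cells, was 15.3-fold lower and Irf4, which directs cDC2 cells, was 8.87-fold higher in CD11b+ cells. Between the inflamed subsets 6 of the 16 were higher and 3 lower in CD11b+ cells, against 9.66% and 8.21% of all genes. Under leukocyte scaling 5 were higher and 3 lower, against 6.59% and 5.41%.

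**Figure D5:**
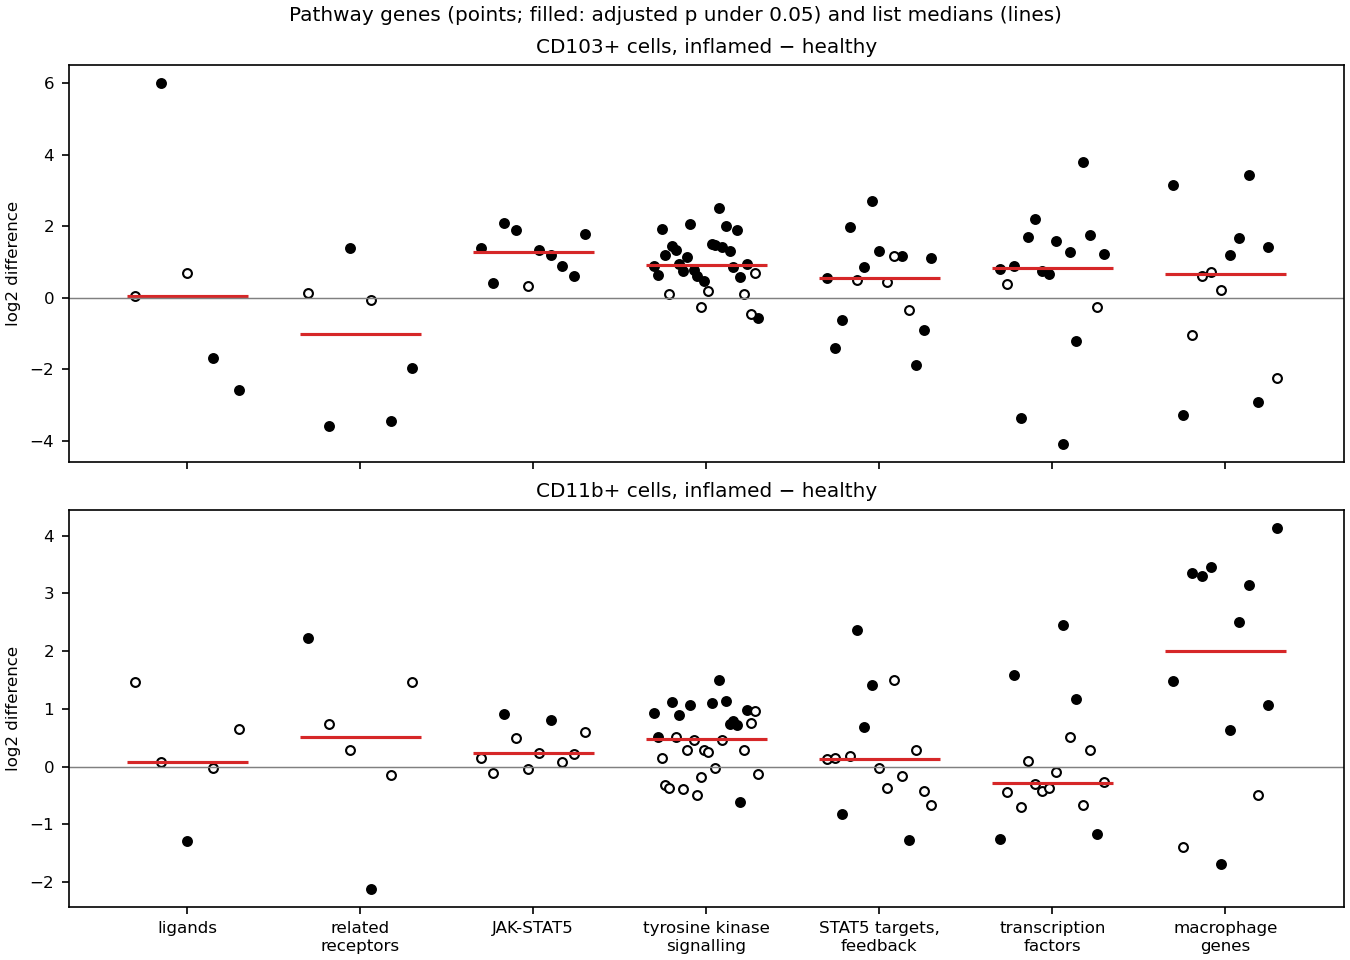
Log2 differences of inflamed against healthy cells (vertical axes, deposited scaling) for the genes of 7 lists in CD103+ cells (upper panel) and CD11b+ cells (lower panel). Points are genes, filled where the limma adjusted p is under 0.05, and red lines are list medians, which for JAK-STAT5 stand at 1.27 and 0.23 and for macrophage genes at 0.67 and 1.995.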

How the data were processed

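RNA of 12 libraries (4 groups of 3) was analysed. Per the labels' protocols, cDNA was made with the SMARTer Ultra Low kit, amplified for 12 cycles after adapter ligation and read from 1 end over 50 bases. The submitters' processing notes name STAR 2.0.4b, featureCounts 1.4.5, Subread and edgeR, with no role or order. The genome build and the use of strand were not given in the sources used here. The authors deposited log2 values. In every library these gave whole reads for 100% of genes (within 0.05) when read as log2 CPM after adding 0.5 reads and dividing by a scaled library size, and CPM in the text are the recovered reads over that size. After 160 repeated lines were dropped from 26281, 26121 genes remained, of which 11941 fell below the filter. Coordinates, exon lengths and coding sequences come from GENCODE M21 (GRCm38).

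The main test was limma 3.58.1 in R 4.3.3 on the deposited log2 values, with all 12 libraries in 1 fit, a mean for each group, and empirical Bayes moderation (trended and robust). P-values were two-sided and adjusted by the Benjamini-Hochberg method over all 14180 genes within a comparison, at a threshold of 0.05. The fit was also run on simulated libraries with few changed genes and no differences in tubule or leukocyte content. The real libraries differ in both respects, so that run cannot show how the fit performs on them. Balances used exact permutation tests (scipy 1.17.1). Python 3.11.15, numpy 2.4.6, pandas 2.3.3, Biopython 1.88 and matplotlib 3.10.9 were used. The labels call the samples biological replicates and give no batch.

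The members, gene lists, markers and alternatives were chosen with earlier results of these data known. Named genes were all members, all ligands, of each other pathway list up to 3 per comparison with the smallest adjusted p under 0.05, and the 3 genes most like each member with at least 10 CPM in the highest group; the markers named were chosen after their values were seen. Alternatives changed the scaling (leukocyte, quantile, median-centred), the pseudocount (0.25 or 4 CPM), the filter (none, or 5 CPM in 3 libraries) and the fit (array weights, a replicate block, only the groups compared), added the reads of both beta chains, or left out each library. Weights for recovered reads (voom) and the list counts under leukocyte scaling and without healthy CD103+ replicate 2 were added after the data were seen. Csf1r is described without coordinates or sequence.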

Additional observations from a re-analysis of the deposited data

Results flagged for a closer look

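Flt3 and Csf1r responded differently to inflammation in the 2 subsets, by the test of the difference itself. The response of CD11b+ cells minus that of CD103+ cells was -2.34 for Flt3 and 1.66 for Csf1r on the log2 scale (limma adjusted p = 0.000571 and 0.000984). Over the alternatives that leave out 1 library these ran from -2.66 to -1.97 for Flt3 and from 1.504 to 1.89 for Csf1r, and under leukocyte scaling they were -1.15 and 2.85. Both came with the lower leukocyte and higher tubule shares of the healthy CD103+ libraries, whose part was not tested. The groups of 3 libraries are too small for a test of single outlying libraries.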

How the results depend on the processing

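Leukocyte scaling decided most changes of direction: it gave -0.69 for Flt3 and -1.49 for Csf2ra in CD103+ cells, inflamed against healthy, -0.029 for Csf2rb between the healthy subsets, and 1.08, 1.01, 0.71 and 0.24 for the difference of responses of Csf2rb, Csf2rb2, Kit and Csf2ra (log2, all with the other sign than the deposited scaling). Among these sign changes, the call for Csf2rb between the healthy subsets ended. Csf2ra in CD103+ cells and the differences of responses of Csf2rb and Csf2rb2 newly passed. Without a change of sign, leukocyte scaling ended the calls for Csf2rb2 in CD103+ cells (0.16), Csf1r in CD11b+ cells (0.87), and Csf2rb2 (0.23) and Csf2ra (0.36) between healthy subsets. It also brought past the threshold Csf1r in CD103+ cells (-1.98), Csf2ra in CD11b+ cells (-1.25) and Flt3 between healthy subsets (-1.31). Array weights brought past it Csf1r in CD103+ cells (-0.52) and Csf2ra in CD11b+ cells (-0.80), between inflamed subsets (0.61) and in the difference of responses (-0.97). Fitting only the groups compared did so for Csf2ra in CD11b+ cells (-0.75) and between inflamed subsets (0.62), quantile normalization for Csf2ra in CD11b+ cells (-0.998), and a pseudocount of 4 CPM for the difference of responses of Kit (-0.56). The sign also changed for Flt3 between healthy subsets with quantile normalization (0.014) and for the difference of responses of Csf2rb2 with a pseudocount of 4 CPM (0.107), neither past the threshold. The genes past the threshold between inflamed subsets numbered 2534, but 4472 with array weights and 4073 with only the groups compared. A pseudocount of 4 CPM moved the balance of Csf1r and Flt3 between inflamed subsets from 8.28 to 7.62, and that of the beta chains to -0.91 in CD103+ cells and -0.089 between healthy subsets. With it, inflamed and healthy groups no longer overlapped for the beta chains in CD103+ (-0.91) and CD11b+ cells (-0.75). The overlap also ended for Csf1r minus Flt3 in CD103+ cells (-1.18) and for Csf2rb minus Csf2ra between inflamed subsets (0.48). The cause of these changes was not tested.

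Leaving out 1 library at a time gave ranges of -0.52 to -0.13 for Csf1r and -0.29 to 0.66 for Csf2ra in CD103+ cells, -0.80 to -0.67 for Csf2ra in CD11b+ cells, -0.46 to 0.22 for Flt3 between healthy subsets, 0.58 to 0.68 for Csf2ra between inflamed subsets, and -0.60 to -0.37 for Kit, -1.40 to -0.46 for Csf2ra, -0.22 to 0.0045 for Csf2rb and -0.42 to 0.12 for Csf2rb2 in the difference of responses. In all, 346 of 360 such values of the receptor genes kept direction and side of the threshold, 9 newly passed and 5 changed sign while not past it. Of 334 values under other settings 310 kept both, 11 newly passed, 4 lost the call and 9 changed sign. Values that changed sign were counted only as such, also where they newly passed or lost the call.

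A replicate block, which treats equal library numbers as pairs, gave 8737, 4843, 6538, 2089 and 4178 genes past the threshold in the 5 comparisons against 8851, 5087, 7084, 2534 and 5022, and changed no call of a receptor gene. Same-numbered libraries of the subsets correlated between -0.15 and 0.15, and differently numbered ones between -0.14 and 0.11. With 3 libraries per group this cannot show which libraries share a mouse, and the numbers were not taken as pairs. The main fit and the permutation tests thus treated the subsets as independent, although both came from every mouse. Their p-values between subsets and for the difference of responses ignore the shared mice. Depth limits Csf2rb2 and Csf1r most, with 88 to 140 and 116 to 235 reads per healthy CD103+ library.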
